A study of Mus musculus with 23 samples.

Results

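Ribosome footprints (RPFs) are the short stretches of mRNA that a translating ribosome shields from nuclease, and their density on an mRNA reports how many ribosomes were reading it. RPFs of mouse bone marrow-derived macrophages (BMDMs) after 6 h of LPS were compared with those after 4 h, which asks what the macrophages translated more or less as the response moved into its later phase. The 2 libraries at 6 h and the 2 at 4 h are 4 of the 23 libraries of the series, chosen by the time point in their labels. All 4 came from C57BL/6 cells that had been grown from bone marrow for 7 days in medium with L929 supernatant, a source of the growth factor M-CSF, and then given LPS at 100 ng/ml, so that no untreated cells enter the comparison. Replicates are lettered A and B, and no label ties them to separate animals, so that p-values measure the spread between these libraries. The other Ribo-seq libraries (0 h without LPS, and 1 h and 2 h with it) lent their replicate spread to the test, and the RNA-seq libraries of the same cultures gave the mRNA levels. Of the 6397 genes in the deposited table, 5277 had a mean of at least 10 RPKM (reads per kilobase of gene, scaled to the size of the library) over the 10 Ribo-seq libraries and were tested.

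LPS, a cell wall component of Gram-negative bacteria, is sensed by Tlr4 and switches on cytokine and chemokine genes through NF-kB within the first hours. Many of these mRNAs carry AU-rich elements in their 3'UTRs, to which proteins such as Zfp36 (also called tristetraprolin) bind and shorten the life or the translation of the message. In the later hours macrophages are known to take up feedback and repair programmes, among them heme breakdown and iron storage, and LPS is known to stop M-CSF-driven division of these cells. RPF density rises when there is more of an mRNA and also when each mRNA carries more ribosomes, which is why the RNA change is given beside it.

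The low RPKM values of each Ribo-seq library lie on steps of a whole read, which gives the depth behind them. The library of 6 h replicate A rested on 545000 reads, against 2550000 for 6 h replicate B and 3460000 and 1980000 for 4 h replicates A and B. Over 2773 tested genes with a single annotated mRNA, the median gene had 22 reads in the shallow library and 151, 92 and 95 in the others in the order 4 h A, 4 h B and 6 h B. Fewer than 10 reads stood behind 27.3% of these genes at 6 h A, compared with 1.05% to 4.83% in the other 3 libraries, so that low values at 6 h A carry large counting error. The SD of the log2 difference between replicates was 0.35 at 4 h and 0.68 at 6 h. All 10 macrophage markers examined, among them Adgre1, Csf1r and Cd68, were in the table and none passed the test, and their summed level lay between 28110 and 29790 RPKM in the 4 libraries. No neutrophil, lymphocyte or erythroid marker was in the table, which holds only genes with a value above 0 in every library. Of 5 defining dendritic cell markers none was there, and of 7 fibroblast and endothelial markers 1, Col1a1, was at 1.74 to 4.63 RPKM. In the longer lists the dendritic cell set had Bst2, also an interferon-stimulated gene, in the table and 4 of 14 fibroblast and endothelial genes were there, 2 of them tested and none called.

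RPFs of 72 genes rose (1.36% of the 5277 tested) and those of 161 fell (3.05%) between 4 h and 6 h, together 4.42%, at an adjusted p under 0.05 (limma on log2(RPKM + 1), Benjamini-Hochberg over all tested genes). The heme-degrading enzyme Hmox1, the acute-phase protein Saa3 and the interleukin 1 receptor antagonist Il1rn were among the genes that rose. Histones, DNA replication factors and the cytokine and chemokine mRNAs Tnf, Ccl3, Ccl4 and Cxcl10 were among those that fell. Rises were between 0.59 and 2.93 log2 units and falls between 0.45 and 3.92. The median over all tested genes was -0.18, with -0.10 from replicate A and -0.20 from replicate B, so that changes stand against a small downward shift of the whole. With each library centred on its own median, 158 genes were higher and 109 lower, so that higher genes made up 59.2% of the calls instead of 30.9%. All 72 of the first set and 109 of the 161 of the second kept their call under that scaling. Without 6 h replicate A, 14 genes were higher and 85 lower, and of the original calls 14 and 65 remained. Leaving out 6 h replicate B gave 5 and 50, 4 h replicate A 4 and 19, and 4 h replicate B 2 and 12, the fewest. Leaving out either 0 h library gave 41 and 92, and leaving out both 1 h libraries, whose replicates were furthest apart, gave 146 and 287. Of the 76 genes past the test that the naming rule chose, 38, 24, 15 and 10 were still past it without 6 h A, 6 h B, 4 h A and 4 h B in turn. All 233 genes had both 6 h values on the same side of both 4 h values, so that only median centring could have changed a sign. None of them changed sign under median centring.

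**Figure D1:**
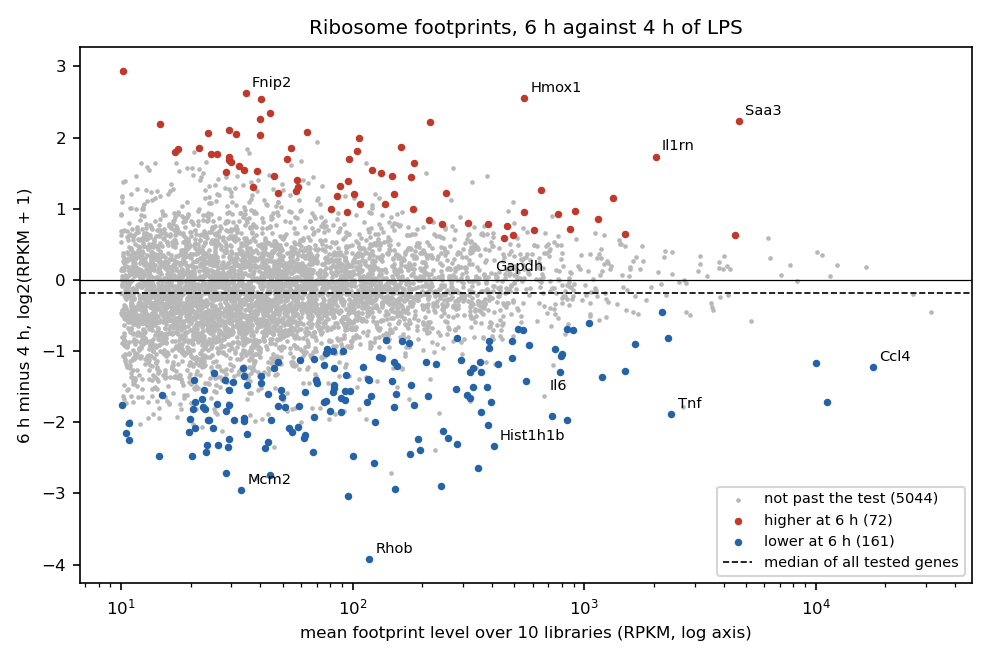
Change in RPFs from 4 h to 6 h on the log2(RPKM + 1) scale against the mean level over 10 Ribo-seq libraries, 1 point per tested gene. Red points are the 72 genes that rose and blue points the 161 that fell, and the dashed line marks the median of -0.18. Some highly translated genes pass at small changes, such as Ctsc at 0.63, while the scatter of grey points widens at low RPKM.

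Hmox1, the enzyme that opens the heme ring and frees iron, had 168 and 225 RPKM at 4 h (replicates A and B) and 1217 and 1074 RPKM at 6 h. The change was 2.55 log2 units (SE 0.18, limma adjusted p = 0.000129), and the gene lies at chr8:75093618-75100593 (mm10). Both 6 h libraries were several times above both 4 h libraries, and the call held under all 20 alternatives. The mRNA of Hmox1 moved by 2.52 log2 units in the RNA-seq libraries of the same cultures. Its RPFs had been at 552 and 563 RPKM before LPS, so that 4 h was a low point between 2 high levels.

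Saa3, a serum amyloid A protein that macrophages secrete in the acute-phase response, rose from 4102 and 3865 RPKM to 18112 and 19369 RPKM. This was a change of 2.23 log2 units (SE 0.20, limma adjusted p = 0.000757), and it too was called under all 20 alternatives. In contrast to Hmox1, Saa3 had been at 44.7 and 52.0 RPKM at 0 h and climbed from 2 h on, as the plot of levels over time shows. Il1rn, the secreted antagonist that blocks the interleukin 1 receptor, had 2209 and 2214 RPKM at 4 h and 6789 and 7939 RPKM at 6 h (1.73 log2 units, SE 0.24, limma adjusted p = 0.00616). Like Saa3 it had its highest level of the course at 6 h.

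The other genes with the largest rises were expressed at lower levels. Fnip2, a folliculin partner in nutrient sensing at the lysosome, had 10.6 and 7.11 RPKM at 4 h and 48.2 and 70.9 RPKM at 6 h, a change of 2.62 log2 units (SE 0.41, limma adjusted p = 0.00980). Gm5150 showed the largest change of all risen genes, 2.93 log2 units from 1.602 and 3.92 RPKM to 20.3 and 33.9 RPKM. Its value at 6 h A rested on 10 reads, and the gene belongs to a family of similar signal-regulatory proteins, so that reads may be shared between copies. Tmem104, Thbs1, Tor4a, Slc28a2, Trim8, Plekho1, Tmem189 and Acvr1b rose by 2.07 to 2.54 log2 units. Thbs1 encodes the secreted matrix protein thrombospondin 1, Slc28a2 a nucleoside transporter and Acvr1b a type I activin receptor. The rule that chose these 12 genes required both values at 6 h to be above both values at 4 h. All 72 risen genes show that separation, as do 21.4% of all tested genes.

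**Figure D2:**
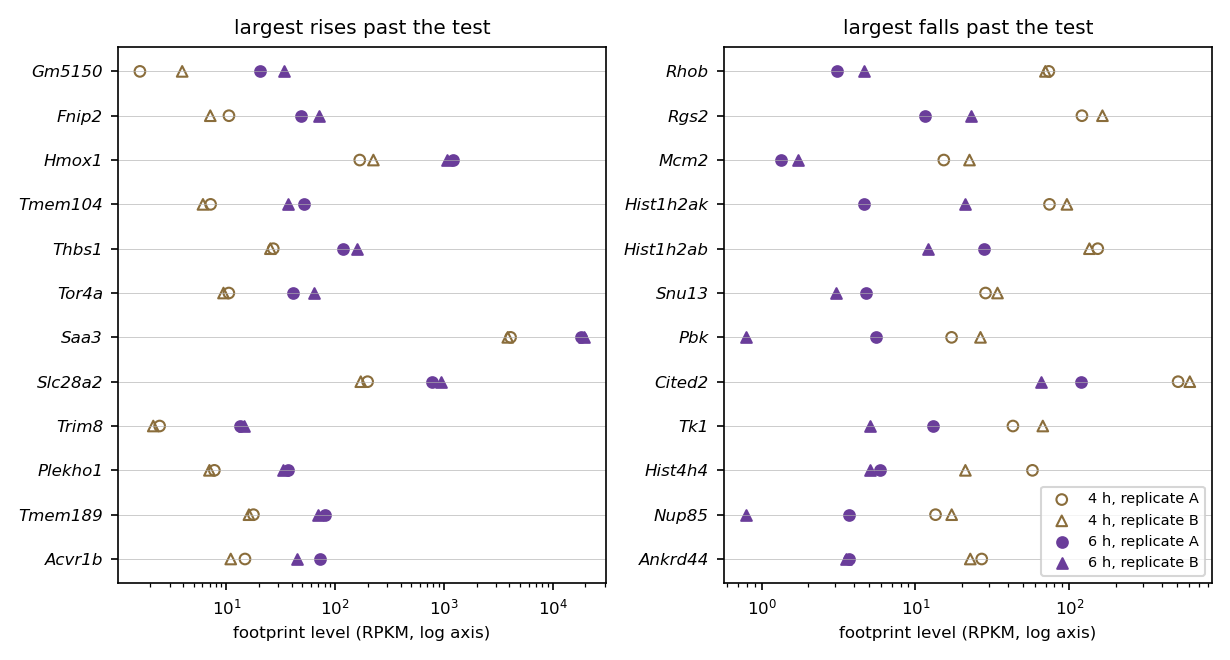
RPF level in RPKM on a log axis in each of the 4 libraries for the 12 genes with the largest rises (left) and the 12 with the largest falls (right) among those past the test. Open symbols are 4 h and filled symbols 6 h, circles replicate A and triangles replicate B. The choice of genes required that the 6 h symbols lie wholly apart from the 4 h symbols. Several fallen genes are at under 10 RPKM at 6 h.

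Transport, sugar and lipid handling genes were among the risen members of the gene lists. For comparison, 1.36% of all tested genes rose and 3.05% fell. Of 21 tested genes of glycolysis and glucose uptake 3 rose and none fell: Hk3, a hexokinase (94.3 and 108 RPKM to 235 and 234), Slc2a1, the glucose transporter Glut1 (214 and 203 to 393 and 447), and Slc16a3, the lactate exporter (111 and 90.7 to 206 and 216). Their changes were 1.21, 1.00 and 1.07 log2 units, while the median of the list was 0.04. The other members did not pass, and none of the list was called when any of the 4 libraries was left out. Of 23 tested genes of cholesterol synthesis and efflux the 2 that rose were both exporters, Abca1 (29.4 and 24.5 RPKM to 75.9 and 105) and Abcg1 (44.4 and 38.3 to 113 and 109), which carry cholesterol out of the cell. The median of this list was -0.45, below that of all genes, and no synthesis enzyme passed in either direction. The cathepsins Ctsc and Ctsz, lysosomal proteases, were the 2 of 55 tested lysosomal and phagocytic genes that rose, by 0.63 and 0.64 log2 units. With each library centred on its median, 12 lysosomal genes were higher and none lower.

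The 2 ferritin chains, which store iron together, differed in the footprints. Fth1, the heavy chain of ferritin, had 550 and 597 RPKM at 4 h and 1090 and 1098 RPKM at 6 h, a change of 0.93 log2 units (SE 0.12, limma adjusted p = 0.00531), and Fth1 has processed copies in the genome with which reads may be shared. The light chain Ftl1 was at 71.4 and 78.0 RPKM at 4 h and at 33.3 and 65.6 RPKM at 6 h and did not pass (limma adjusted p = 0.444). The mRNA changes had the same signs, with 0.65 log2 units for Fth1 and -0.35 for Ftl1. Both mRNAs are known to be held back at low iron by proteins that grip an iron-responsive hairpin in their 5'UTR. That hairpin was looked for as the loop letters CAGTG and 1 further base, with an unpaired C before a stem of 5 paired bases (G with T allowed), on the transcript strand of RefSeq 5'UTRs. The pattern and the 2 genes were picked after their values had been seen. It was found in 8 of 5267 tested genes with a 5'UTR, 0.152%. The 30 bases around it in the ferritins lie at chr19:9982732-9982761 (plus strand) and chr7:45459778-45459807 (minus strand) of GRCm38. They are shown with the loop in capitals because the 2 sites are nearly alike while the RPF changes, like the mRNA changes, had opposite signs.
Fth1: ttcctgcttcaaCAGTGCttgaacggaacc
Ftl1: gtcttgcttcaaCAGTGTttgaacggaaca

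Among the oxidative stress genes, Hmox1 was the only 1 of 20 tested that rose. Over all tested genes 1.36% rose and 3.05% fell. Sqstm1, the autophagy adaptor p62, fell by 1.04 log2 units (753 and 812 RPKM to 393 and 368), and Taldo1, an enzyme of the pentose phosphate pathway, fell by 0.70. The list's median was -0.16 and turned to 0.04 when each library was centred on its own median. Fosl2 of the AP-1 family was the 1 of 18 tested immediate early transcription factors that rose, from 16.2 and 17.5 RPKM to 40.9 and 45.5. The amino acid exchanger subunit Slc3a2 rose as well, from 376 and 357 RPKM to 551 and 580, the 1 of 13 amino acid response targets that passed.

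The most uniform fall was that of the replication-dependent histones, the histones that cells make while they copy their DNA. Of 38 tested, 23 fell and none rose, beside 3.05% and 1.36% of all tested genes. Their median was -1.67 log2 units against -0.18 for all tested genes. Both values at 6 h were below both values at 4 h in all 38, a separation that 38.5% of all tested genes show. The linker histone Hist1h1b had 194 and 207 RPKM at 4 h and 43.4 and 34.9 RPKM at 6 h, a change of -2.34 log2 units (SE 0.22, limma adjusted p = 0.000927). It had been at 852 and 585 RPKM before LPS, and its mean was lower at each later time point, with replicates that overlapped up to 2 h. Hist1h2ab dropped from 153 and 135 RPKM to 28.0 and 11.98 RPKM, and Hist1h2bg from 208 and 275 RPKM to 52.9 and 61.8 RPKM. In both genes each 6 h library was far below each 4 h library. The mRNAs fell too, with 36 of 37 tested histones lower in RNA (26.5% of the 4805 genes tested for RNA were) and a median of -1.50. Without 6 h A, 6 h B, 4 h A or 4 h B in turn 15, 9, 7 and 2 histones were lower, while the medians stayed between -1.79 and -1.40. Histone genes are nearly identical to each other, so that reads of 1 copy may have been counted for another, and fewer dividing cells and less histone RNA per cell cannot be told apart in bulk samples.

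Replication-dependent histone mRNAs have no poly(A) tail, and end in a short stem-loop that the protein Slbp holds for processing and translation. It was searched in the first 100 bases of RefSeq 3'UTRs as a perfect stem of 6 base pairs that starts with GG and closes a loop of 4 bases starting with T, on the transcript strand, a pattern chosen after the values were seen. All 38 tested histones carried it, starting 22 to 56 bases into the 3'UTR, in 7 versions of the 16 bases. It was found in 44 of 5269 tested genes in all (0.835%), so that 6 were outside the list. Of these 6, the histone variant gene H2afx carried GGCCC in its stem like Hist4h4 and was at 142 and 185 RPKM at 4 h and 114 and 111 at 6 h, which did not pass (limma adjusted p = 0.219). A linker, an H2A, an H2B and an H4 gene and H2afx are shown with the 16 bases in capitals, since they differ in RPF change more than in this element. In GRCm38 they lie at chr13:21779832-21779857 (minus), chr13:23751567-23751592 (plus), chr13:23571838-23571863 (plus), chr6:136803993-136804018 (minus) and chr9:44335235-44335260 (plus).
Hist1h1b: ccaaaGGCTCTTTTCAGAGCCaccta
Hist1h2ab: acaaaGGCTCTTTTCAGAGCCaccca
Hist1h2bg: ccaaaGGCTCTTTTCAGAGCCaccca
Hist4h4: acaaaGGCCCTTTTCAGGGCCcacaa
H2afx: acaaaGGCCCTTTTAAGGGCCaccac
Hist4h4 fell by 2.48 log2 units (57.6 and 21.1 RPKM to 5.88 and 5.04), where 6 h A rested on 1 read. The H2A and H2B genes shown share the same 16 bases and changed by -2.90 and -2.04.

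Many genes of cell division fell as well. Of 39 tested cell cycle and DNA replication genes 19 fell and none rose, beside 3.05% and 1.36% of all tested genes. The list's median was -1.41, and 6 of those that did not pass had changes above 0, up to 0.81. All 6 subunits of the Mcm helicase, which unwinds DNA at the fork, were among the 19, with changes from -1.41 for Mcm6 to -2.95 for Mcm2. Mcm7 had 34.1 and 40.6 RPKM at 4 h and 5.92 and 6.35 RPKM at 6 h (-2.42 log2 units, SE 0.26, limma adjusted p = 0.00190). Mcm2 went from 15.3 and 22.5 RPKM to 1.34 and 1.73 RPKM, which is 2 reads at 6 h A and 12 at 6 h B. The thymidine kinase Tk1 changed by -2.57, the mitotic kinase Cdk1 by -1.79 and its cyclin Ccna2 by -1.78. Cdkn1a, the inhibitor p21 that holds cells out of S phase, was also among the 19, from 1973 and 2287 RPKM to 973 and 702, so that the direction of the list does not follow from the role of each member. Of 34 members tested for RNA 29 were lower and 3 higher, beside 26.5% and 14.5% of all genes tested for RNA. Without 6 h A, 6 h B, 4 h A or 4 h B in turn 8, 6, 3 and 1 of the 39 were lower, with medians between -1.47 and -1.26, and without either 0 h library 11 were. The histones and cell cycle genes together made up 42 of the 161 fallen genes, 26.1%.

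**Figure D3:**
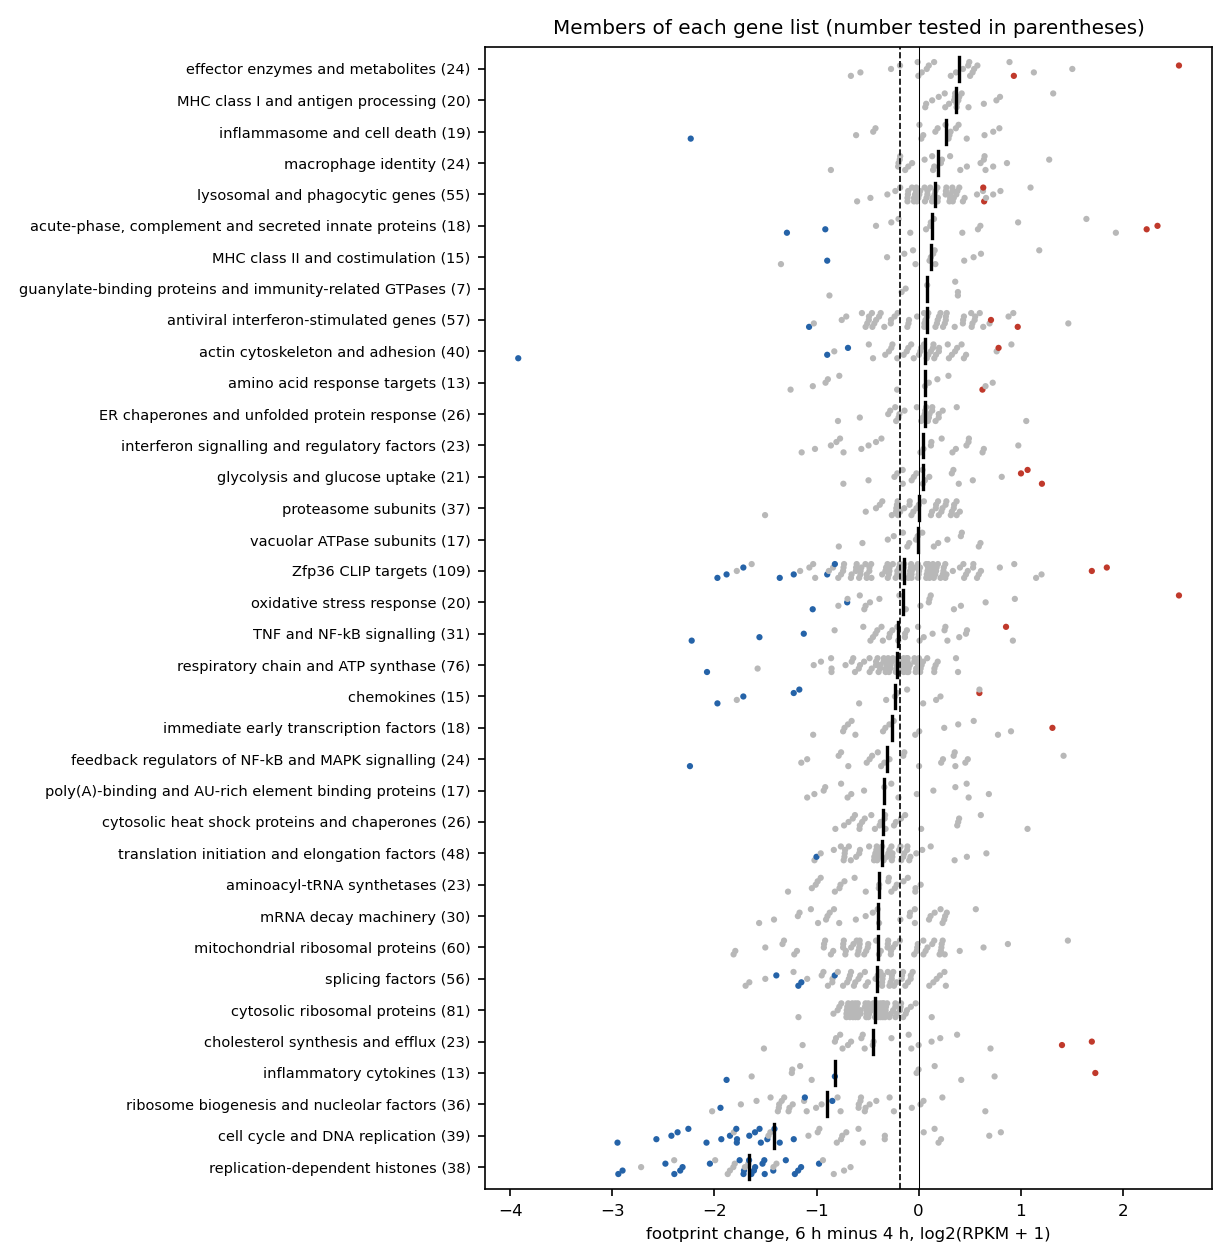
RPF change from 4 h to 6 h on the log2(RPKM + 1) scale for each tested member of the gene lists, with red for members that rose, blue for members that fell and grey for the others. Black bars are list medians and the dashed line is the median of all tested genes (-0.18); the histones and cell cycle genes lie furthest to the left, with medians of -1.67 and -1.41, and the cytosolic ribosomal proteins form a narrow band near -0.43.

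The largest single fall was outside the histone and cell cycle lists. Rhob, a small GTPase of endosomes and the actin cytoskeleton, had 73.6 and 69.9 RPKM at 4 h and 3.09 and 4.63 RPKM at 6 h, a change of -3.92 log2 units (SE 0.26, limma adjusted p = 0.000129) at chr12:8497661-8500009. The 6 h values rested on 1 read in replicate A and 7 in replicate B, and the mRNA, measured in other libraries, fell by 2.70 log2 units. Rhob had peaked at 2 h with 338 and 302 RPKM. Rgs2, which shortens G protein signals, fell from 121 and 164 RPKM to 11.5 and 22.9 RPKM. Cited2, a co-regulator of the acetyltransferases CBP and p300, fell from 509 and 606 RPKM to 119 and 65.1 RPKM and was called under all 20 alternatives. Snu13, a protein of small nucleolar and spliceosomal RNPs, fell from 28.5 and 34.1 RPKM to 4.76 and 3.06 RPKM, values that stand for 1 and 3 reads. The mitotic kinase Pbk, the nuclear pore protein Nup85 and Ankrd44, a regulatory subunit of a protein phosphatase, changed by -2.71, -2.48 and -2.48 log2 units.

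Several of the most heavily translated inflammatory mRNAs lost footprints between 4 h and 6 h. Ccl4, a chemokine that draws monocytes and lymphocytes, had 37194 and 41023 RPKM at 4 h and 16190 and 17284 RPKM at 6 h (-1.22 log2 units, SE 0.11, limma adjusted p = 0.000786). Ccl3, its neighbour on chromosome 11, fell from 26261 and 30958 RPKM to 8735 and 8610 RPKM (-1.72), and the interferon-induced chemokine Cxcl10 from 26263 and 25913 RPKM to 11373 and 11839 RPKM (-1.17). The values at the 2 time points are far apart in each of these 3, and each was called under all 20 alternatives. Cxcl1, a neutrophil attractant, fell from 211 and 210 RPKM to 51.0 and 54.7 RPKM. With these 4 of 15 chemokine genes fell, and the 1 that rose was the CC chemokine Ccl6 (280 and 266 RPKM to 416 and 410), named here after its values were seen. The median of the list was -0.23, close to that of all genes, of which 3.05% fell and 1.36% rose.

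Of 13 tested inflammatory cytokines 2 fell and 1 rose, beside 3.05% and 1.36% of all tested genes, with a median of -0.82. Tnf, the founding cytokine of its family, had 1955 and 2246 RPKM at 4 h and 557 and 580 RPKM at 6 h, a change of -1.88 log2 units (SE 0.36, limma adjusted p = 0.0211). Its level had been 7516 and 7489 RPKM at 1 h. Without any of the 4 libraries in turn no cytokine was called lower, and Il1rn was called higher only without 6 h replicate A. Il1b fell by 0.82 log2 units, from 4661 and 5316 RPKM to 2789 and 2847. Il6 had 2229 and 2468 RPKM at 4 h and 680 and 836 RPKM at 6 h and did not pass (-1.64, SE 0.84, limma adjusted p = 0.325), and neither did Il10, at 563 and 555 and then 226 and 275 RPKM (-1.16, limma adjusted p = 0.0904). In both genes the 2 pairs of libraries are apart, and the SE comes from the spread of all 5 time points.

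Among receptors and signalling proteins of the same pathways, Tlr2, the receptor for bacterial lipopeptides, fell from 402 and 415 RPKM to 180 and 193 RPKM. Rel, an NF-kB subunit, changed by -1.56 log2 units and Ripk2, the kinase downstream of the NOD receptors, by -2.22. Tnfrsf1b, the second TNF receptor, went the other way, from 1432 and 1358 RPKM to 2354 and 2708 RPKM (0.86 log2 units, SE 0.18, limma adjusted p = 0.0308). These 4 were the called members of 31 tested TNF and NF-kB signalling genes, and none was called without 4 h replicate A or without 4 h replicate B. The deubiquitinase Otud1 was the 1 of 24 tested feedback regulators that passed, at 65.4 and 72.8 RPKM and then 9.32 and 20.3 RPKM. Bcl2l11, the pro-apoptotic protein Bim, was the 1 of 19 inflammasome and cell death genes that passed, and fell by 2.23 log2 units. Of the acute-phase and secreted proteins, Saa3 and Thbs1 rose while the plasminogen activator Plau fell, with a change of -1.29. Of 40 actin and adhesion genes 1 rose, the fibronectin receptor subunit Itga5 (0.78), and 3 fell, Rhob, Icam1 (-0.90) and the integrin subunit Itgav (-0.69). The counts of these lists stand beside 1.36% of all tested genes that rose and 3.05% that fell.

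Antiviral interferon-stimulated genes had 3 calls, too few to set the list apart from the 4.42% called over all tested genes. Of 57 tested antiviral ones 2 rose and 1 fell, beside 1.36% and 3.05% of all tested genes, with a median of 0.08. None of the 3 was called without 4 h A, 4 h B or 6 h B, and 1 was without 6 h A. The tetherin gene Bst2, which holds virions on the cell surface, rose from 987 and 925 RPKM to 1586 and 1540, and the membrane protein gene Ms4a6d from 1208 and 1241 to 2212 and 2606, though Ms4a6d has close paralogs. Ifit1, a sensor of foreign RNA ends, fell from 2347 and 2468 RPKM to 1239 and 1055 RPKM (-1.07 log2 units, SE 0.22, limma adjusted p = 0.0292). None of 7 guanylate-binding proteins and immunity-related GTPases and none of 23 interferon signalling genes passed, with Irf1 at 529 and 575 and then 311 and 320 RPKM (limma adjusted p = 0.110). None of 20 tested MHC class I and antigen processing genes passed either, yet all 20 had changes above 0 with a median of 0.36, and in 17 both 6 h values were above both 4 h values. Over all 5277 tested genes 1958 had changes above 0, and in 21.4% both 6 h values were above both 4 h values. B2m, the light chain of MHC class I, had 10501 and 10165 RPKM at 4 h and 13330 and 13730 at 6 h (0.39, limma adjusted p = 0.122). Centring each library on its median gave 3 members that were higher, and none lower. The core of the interferon-stimulated response element, GAAA and after any 2 bases GAAA again, was found, on either strand, in RefSeq promoters (250 bases before to 50 after the start, GRCm38) of 20 of 45 matched antiviral genes and of 4 of 17 matched MHC class I genes, against 3.49% of 27025 promoters.

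The study mapped Zfp36 binding sites by CLIP-seq in LPS-treated BMDMs of Zfp36-V5 knock-in mice, whose Zfp36 carries an epitope tag. These sites, mapped at 4 h and deposited as 280 mRNAs with a peak each, offered another way to group the genes. Of these mRNAs 109 were tested, and 7 fell and 2 rose, beside 3.05% and 1.36% of all tested genes, with a median of -0.14 that turned to 0.05 when each library was centred on its median. Without 4 h A, 4 h B or 6 h B 2 targets were lower and none higher, and without 6 h A 4 were lower and 1 higher. The 7 were Cxcl1, Tnf, Ccl3, Cdkn1a, Ccl4, Icam1 and Il1b, and the peak of each had its centre in the 3'UTR. Over all 280 mRNAs 23.2% of peaks did, and that share was larger among the tested targets. The 2 that rose, Abca1 and Peak1, had their peaks in introns. Icam1, the adhesion receptor for leukocyte integrins, fell from 2842 and 2744 RPKM to 1541 and 1462. The scaffold kinase Peak1 was at 1.595 and 2.31 RPKM at 4 h and at 10.8 and 8.36 at 6 h.

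Peaks were searched on the transcript strand for TATTTAT, the DNA letters of the AU-rich heptamer that Zfp36 is known to bind. It was present in 29 of the 65 peaks centred in a 3'UTR (44.6%) and in no other peak, and 28 of the 29 mRNAs were tested. Of these 28, 5 fell and none rose, with a median of -0.20, and of the 81 other tested targets 2 fell and 2 rose, with a median of -0.09. The 81 mix 3'UTR peaks without a heptamer with peaks elsewhere, so heptamer and place of the peak cannot be told apart here. The first heptamer of the peak in each of the 5 fallen mRNAs is given with 11 bases on either side and the heptamer in capitals, since these 5 are chemokines, a cytokine and an adhesion receptor of the same response. They lie at chr5:90892748-90892776 (plus), chr17:35199708-35199736 (minus), chr11:83648003-83648031 (minus), chr11:83664542-83664570 (plus) and chr9:21028314-21028342 (plus) of GRCm38.
Cxcl1: cattaaactaaTATTTATtgggagaccac
Tnf: cagcccccctcTATTTATatttgcactta
Ccl3: gtatttgtgacTATTTATtctgaaagact
Ccl4: attatttctatTATTTATgttttagttat
Icam1: tcttcttgatgTATTTATtaatttagagt
The peak of Tnf held 8 heptamers, that of Icam1 2 and those of the chemokines 1 each. The Tnf peak (chr17:35199401-35200400) was also the widest of the 5, which leaves more room for heptamers. The mRNA levels of these 5 fell as well, with changes of -2.28 for Cxcl1, -0.85 for Tnf, -1.29 for Ccl3, -1.15 for Ccl4 and -0.93 for Icam1. Zfp36 itself had 1183 and 1403 RPKM at 4 h and 755 and 766 RPKM at 6 h, which missed the threshold (-0.76, SE 0.21, limma adjusted p = 0.0728). Pabpc1, which coats poly(A) tails in the cytoplasm, went from 175 and 181 to 98.5 and 89.8 RPKM and also missed it (-0.92, SE 0.32, limma adjusted p = 0.145).

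Of the groups of the translation machinery, 1 translation factor passed the test, as did 4.42% of all tested genes. None of 81 cytosolic ribosomal proteins passed, while 80 of the 81 had changes below 0, with a median of -0.43, and in 67 both 6 h values were below both 4 h values. Over all 5277 tested genes 3319 had changes below 0, and in 38.5% both 6 h values were below both 4 h values. Rps21 had 904 and 1035 RPKM at 4 h and 743 and 608 at 6 h (-0.53, SE 0.14, limma adjusted p = 0.0692). With each library centred on its median the median of these genes was -0.23. With limma's library weights, which were equal for both replicates of a time point, 15 of these genes were lower. Ribosomal protein genes have many processed copies, with which reads may be shared. The terminal oligopyrimidine run, a C and 4 further pyrimidines right at the start site, was found in 12 of 60 matched ribosomal protein promoters and in 2.49% of all promoters. Only the annotated start base was searched, so a run that begins a few bases away was missed and the share may be too low. None of 60 mitochondrial ribosomal proteins and none of 23 aminoacyl-tRNA synthetases passed, with medians of -0.40 and -0.39. Of 48 translation factors 1 fell, Eif3g, a subunit of the initiation factor that prepares the small ribosomal subunit, from 88.3 and 93.3 RPKM to 43.9 and 45.8.

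Factors that build ribosomes and splice RNA in the nucleus had a few calls, all on the lower side, where 3.05% of all tested genes fell. Of 36 ribosome biogenesis and nucleolar factors 3 fell and none rose, with a median of -0.90: nucleolin Ncl (157 and 176 RPKM to 95.5 and 89.0), the box C/D protein Nop58 (30.9 and 28.3 to 10.2 and 4.63) and Mybbp1a (79.8 and 85.9 to 36.6 and 38.8). Of 56 splicing factors 4 fell and none rose, with a median of -0.41: the SR proteins Srsf2 (210 and 234 RPKM to 101 and 93.4) and Srsf7 (99.7 and 113 to 46.2 and 34.1), and Hnrnpl and Hnrnpab, with changes of -1.15 and -0.82 log2 units. With each library centred on its median 1 biogenesis factor was lower. Without 6 h replicate A 1 member of each of these 2 lists was lower, and without 4 h replicate A or 4 h replicate B none was. None of 30 mRNA decay genes and none of 17 poly(A)- and AU-rich element binding proteins passed.

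Other groups had few or no calls, which does not show that their members were unchanged, since 4.42% of all tested genes were called. In 17 of 26 cytosolic heat shock proteins both 6 h values were below both 4 h values. Of 24 macrophage identity genes, 14 had both 6 h values above both 4 h values and 7 had both below. Over all tested genes 21.4% lay above and 38.5% below. None of 37 proteasome subunits, 17 vacuolar ATPase subunits, 26 ER chaperones, 26 cytosolic heat shock proteins or 24 macrophage identity genes passed, and the medians of these 5 lists were 0.00, -0.01, 0.06, -0.35 and 0.19. Lyz2, the lysozyme of macrophages, was at 17412 and 17954 RPKM at 4 h and at 15070 and 15787 at 6 h. Of 76 respiratory chain and ATP synthase genes 1 fell, Cox7a2l, an assembly factor of respiratory supercomplexes, from 32.1 and 51.5 RPKM to 5.49 and 14.1 RPKM. Gapdh was at 347 and 431 RPKM and then at 396 and 400 (0.04, SE 0.20, limma adjusted p = 0.942).

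**Figure D4:**
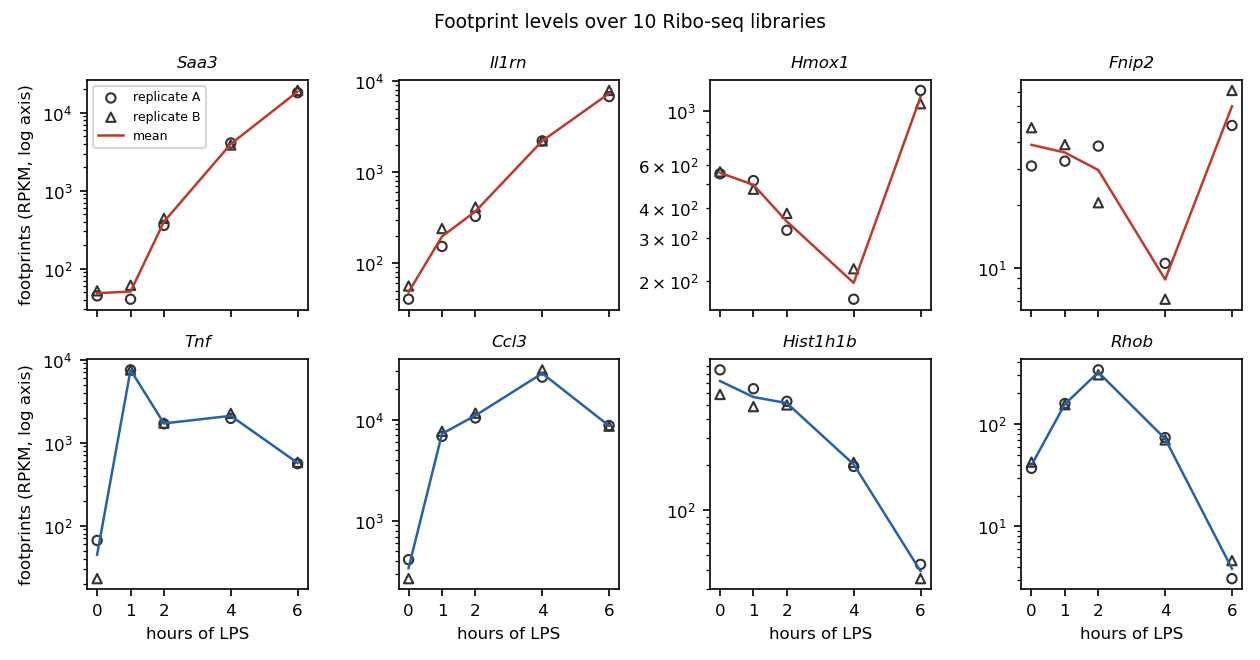
RPF level in RPKM (log axes, scaled per gene) at 0, 1, 2, 4 and 6 h of LPS for 4 genes that rose between 4 h and 6 h (red lines) and 4 that fell (blue lines), with circles and triangles for replicates A and B and lines through the means. Saa3 and Il1rn climbed to 6 h, Hmox1 and Fnip2 were lowest at 4 h, Tnf peaked at 1 h, Ccl3 at 4 h and Rhob at 2 h, and Hist1h1b fell through the whole course.

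Over the whole course, the mean level of the 72 risen genes was highest at 6 h in 45, at 0 h in 21, at 1 h in 5 and at 2 h in 1. In 47 of the 72, a set that overlaps with these, both values at 0 h were above both at 4 h, as for Hmox1, Fnip2, Tmem104 (65.8 and 70.7 RPKM before LPS, then 7.16 and 6.09, then 51.5 and 36.5) and the ubiquitin ligase Trim8 (22.5 and 31.2, then 2.43 and 2.13, then 13.2 and 14.6). Of the 161 fallen genes the mean was lowest at 6 h in 138, and highest at 0 h in 82, at 1 h in 34, at 2 h in 23 and at 4 h in 22. In 137 of them both values at 0 h were above both at 6 h, and in 40 both values at 0 h were below both at 4 h, which is the case for Tnf, Ccl3, Ccl4 and Cxcl10. The 4 h and 6 h values that set the calls also enter these patterns, so the counts describe the called genes and were not tested.

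The mRNA levels of the same cultures changed in the same direction for nearly all called genes. In RNA-seq 695 of 4805 genes were higher (14.5%) and 1272 lower (26.5%), together 40.9%, where the replicates were closer (SD of the log2 difference 0.19 at 4 h and 0.16 at 6 h, median SE of a change 0.12 against 0.38 for RPFs). Of the 72 risen genes 65 were tested for RNA and all 65 were higher, with median changes of 1.48 for RPFs over the 72 and 1.23 for RNA. Of the 161 fallen genes 154 were tested and 146 were lower, with medians of -1.62 and -1.21, and 8 did not pass for RNA. No gene was called in opposite directions. Without replicate B of the 4 h RNA libraries 691 genes were higher and 802 lower in RNA. Over the 4621 genes tested in both assays the RPF and RNA changes had a Pearson r of 0.81, which is across genes and not over independent samples.

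**Figure D5:**
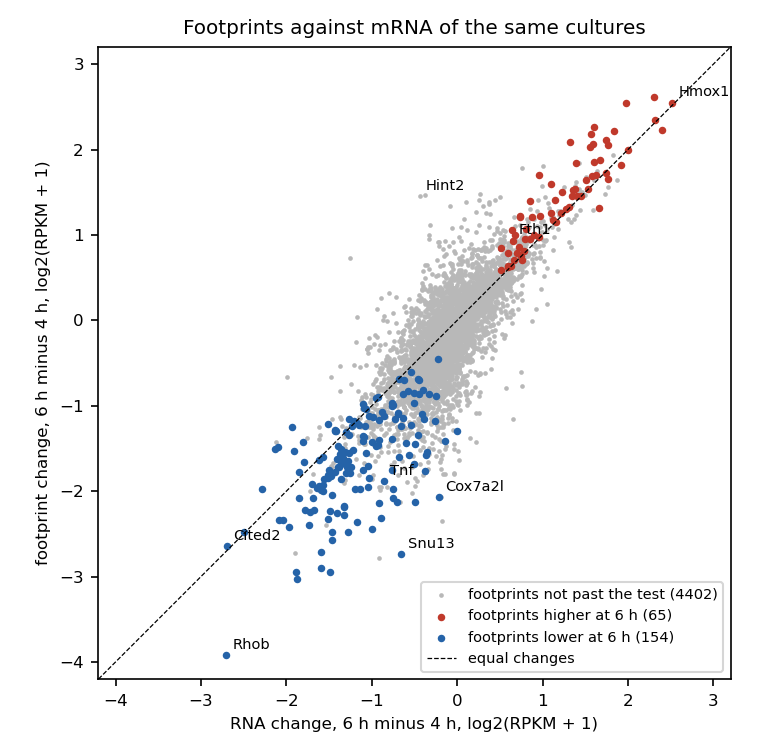
RPF change against RNA change from 4 h to 6 h, both on the log2(RPKM + 1) scale, 1 point per gene tested in both assays, with red and blue for genes whose RPFs rose (65) or fell (154). Points follow the dashed line of equal changes; Snu13, Cox7a2l, Rhob and Tnf lie below it and Hint2 above it, and no gene passed the test of the difference.

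Translation efficiency (TE), the RPF level over the RNA level of the same culture, asks whether RPFs changed beyond the mRNA. No gene of 4621 tested passed (0% called, limma, smallest adjusted p of 1), where 144 genes had an unadjusted p under 0.05, 36 higher and 108 lower, and no alternative gave a call. Among the 8 genes whose RPFs fell and whose RNA did not pass were Il1b, Srsf2, Cox7a2l and Ufc1. The smallest p on the lower side were those of Snu13 (TE change -2.08), Ufc1, a conjugating enzyme of the ubiquitin-like protein Ufm1 (-1.26), and the histone chaperone Anp32e (-1.22). RPFs of Ufc1 fell from 60.7 and 66.7 RPKM to 25.6 and 21.2, while its RNA was at 49.8 and 52.2 RPKM and then at 47.3 and 44.6. On the higher side were Hint2, a mitochondrial hydrolase (1.89), Srp19 of the signal recognition particle (1.42) and Susd3 (1.99), whose RPF changes did not pass. The TE change of Tnf was -1.03 (SE 0.42), that of Hmox1 0.03 and that of Ccl4 -0.07, and none of these passed. The median SE of a TE change was 0.35. Even the changes of Snu13 (-2.08) and Susd3 (1.99) did not pass, so that large differences between footprints and mRNA could also be missed in these libraries. The absence of calls does not show that TE was unchanged.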

How the data were processed

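The authors trimmed the Ribo-seq and RNA-seq reads, removed rRNA, tRNA and mitochondrial reads, aligned the rest to mm10 with TopHat and counted them per RefSeq gene, and deposited the values as RPKM per library without pooling replicates. They called Zfp36 CLIP peaks with 2 CLIP libraries over 1 input library and deposited 1 peak per mRNA with its fold over input. A further sheet that assigns genes to clusters was not used. Reads could only be recovered as steps of the RPKM values, whole within 0.06 of a read for 80.6% to 88.8% of low values per library, and a count test was not run.

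RPKM values were tested as log2(RPKM + 1) with limma 3.58.1 (R 4.3.3, empirical Bayes with a mean trend), over genes with a mean of at least 10 RPKM. Each assay was fitted over its 10 libraries together, which left 5 residual degrees of freedom for a shared spread, and p-values were adjusted by Benjamini-Hochberg over all tested genes. A fold change on this scale understates that of low genes. TE was tested as log2((RPF + 1)/(RNA + 1)) per culture. The code was tested on simulated data. Alternatives were other pseudocounts and filters, median centring, a replicate block, no trend, fewer libraries and library weights.

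Named genes are the 12 largest rises and falls past the test with both 6 h values on the same side of both 4 h values. Also named are up to 4 called members of each list by p or else up to 2 by level. The smallest TE p, CLIP targets past the test, and Tnf, Il6, Il10, Zfp36, Pabpc1 and Gapdh complete the set. The members and lists were chosen with earlier results of these data known. Of the lists not described in the text, MHC class II and costimulation had 1 of 15 lower (Icam1), effector enzymes 2 of 24 higher (Hmox1 and Fth1), and a broader set of dendritic cell genes 1 higher (Bst2). Over all tested genes 1.36% were higher and 3.05% lower. Sequences were read from RefSeq (GRCm38.p6, which is mm10) with pysam 0.24.0, and 7 of 6397 gene symbols were not matched. The result of 1 list member is not reported here.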

Additional observations from a re-analysis of the deposited data

How the results depend on the processing

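Centring each library on its median gave 158 genes with higher RPFs, dropping the mean trend 41, using only the 4 h and 6 h libraries 237 higher and 321 lower, library weights 226 and 489, and leaving out both 1 h libraries, an alternative chosen after seeing the data, 146 and 287. The library weights were equal for replicates A and B of a time point, 2.926 at 4 h and 0.9007 at 6 h. They therefore did not set the shallow 6 h replicate A below 6 h replicate B. An adjusted p under 0.1 called 474 genes. Leaving out 1 library at a time gave 2 to 142 higher and 12 to 290 lower genes. For RNA, a minimum of 10 RPKM in every library gave 452 higher and 712 lower genes, centring 1060 higher, and leaving out 1 library 802 to 1475 lower. With the replicate block 53 genes had higher and 116 lower RPFs, and 67 of 76 named calls remained; deviations of libraries with the same letter had correlations of -0.022 to 0.017 over 10 pairs of time points, so the letter was not taken as a pairing. No gene was called for TE under any alternative. The cause of these shifts was not tested. The 545000 reads of 6 h replicate A limit what can be said of low genes.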
